A study of Mus musculus with 7 samples.

Results

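The microRNA genes of the Dlk1-Dio3 cluster, an imprinted region of mouse chromosome 12, were followed in adrenal glands with and without a deletion of Ezh2. Of the 42 microRNA genes listed for the region, 32 had at least 1 probe set annotated to that gene alone, out of 22180 genes tested. The other 10 (Mir431, Mir433, Mir127, Mir434, Mir136, Mir134, Mir485, Mir412, Mir369 and Mir410) lie on probe sets that also carry the name of another gene and were left out. The members were chosen by location and annotation, but the list was also selected on the measured difference between KO and WT log2 values, which was in view when it was proposed. The values of the member genes in that comparison are therefore a description. No p-value is given for a single member, and counts of members past a threshold are no test of the set.

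The KO group held 4 mice with sf1:Cre and floxed Ezh2 (sf1:Cre; Ezh2 Fl/Fl) and the WT group 3 wild-type littermates, all of them females aged 2 months. Their genetic background was mixed and not controlled, largely C57BL/6 with SV129. The sf1:Cre transgene acts in steroidogenic cells, whereas whole glands were used, so that RNA of medulla, capsule, vessels and adhering tissue was measured as well. In such bulk RNA, fewer cells of a type and less RNA per cell cannot be told apart. Total RNA was labelled as cDNA and hybridised to 1 whole-transcript array per mouse, and values are RMA log2 intensities, on which a difference of 1 is a doubling. The labels call the arrays biological replicates.

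The region carries genes of opposite imprint. Dlk1, Rtl1 and Dio3 are protein-coding and are expressed from the paternal chromosome, while the noncoding transcripts Meg3, Rian and Mirg, with the microRNAs and small nucleolar RNAs (snoRNAs) that lie within or between them, are expressed from the maternal chromosome. A microRNA is cut from a hairpin of its primary transcript by Drosha and Dicer, and bases 2 to 8 of the mature strand, its seed, pair with target mRNAs. The maternal microRNAs are known for high levels in brain, embryo and placenta, and the stretch from Mir379 to Mir410 is known in mouse for roles in neurons and in the metabolic adaptation of the newborn. Ezh2 encodes the enzyme of Polycomb repressive complex 2 (PRC2) that methylates lysine 27 of histone H3, a mark of silent genes. The array labels total RNA, so a probe set of a microRNA gene does not tell its primary transcript, hairpin and mature strands apart.

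The mature sequences below, from RefSeq (GRCm38.p6, plus strand of chromosome 12), are those of measured microRNAs with a close relative in the cluster, among them 7 of the 10 with the largest differences. All 42 listed genes had a mature sequence in that table, 80 sequences in all. Some strands, among them miR-376c-3p, were absent from it. Capitals mark the seed.
mmu-miR-376b-5p, chr12:109723471-109723492: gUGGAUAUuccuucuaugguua
mmu-miR-376c-5p, chr12:109722733-109722754: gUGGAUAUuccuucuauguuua
mmu-miR-376b-3p, chr12:109723508-109723528: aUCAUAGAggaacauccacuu
mmu-miR-376a-3p, chr12:109723824-109723844: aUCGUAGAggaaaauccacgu
mmu-miR-495-3p, chr12:109718795-109718816: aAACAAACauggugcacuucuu
mmu-miR-543-3p, chr12:109717304-109717325: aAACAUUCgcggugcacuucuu
mmu-miR-379-3p, chr12:109709102-109709123: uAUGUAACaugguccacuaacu
mmu-miR-411-3p, chr12:109710225-109710246: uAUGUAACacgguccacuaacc
mmu-miR-380-3p, chr12:109711842-109711863: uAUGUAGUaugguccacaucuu
mmu-miR-300-3p, chr12:109724363-109724384: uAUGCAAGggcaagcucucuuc
mmu-miR-381-3p, chr12:109726870-109726891: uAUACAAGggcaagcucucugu

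Among the 80 mature sequences found, measured members shared a seed in 2 pairs, miR-376b-5p with miR-376c-5p and miR-379-3p with miR-411-3p. Absent strands were not compared, so that further shared seeds may have been missed. The sequences of the miR-376b-5p pair were the same at 21 of 22 bases (G19U, counted from the 5′ end), and those of the miR-379-3p pair at 20 of 22. The other relatives printed above differed within the seed. The miR-300-3p and miR-381-3p strands were the same at 19 of 22 bases and differed in the seed by G4A, miR-376b-3p and miR-376a-3p at 18 of 21 with A4G in the seed, and miR-495-3p and miR-543-3p at 18 of 22 with A6U and A7U in the seed. The hairpins of Mir376b and Mir376c were 82.6% identical, those of Mir300 and Mir381 74.7%, and those of Mir379 and Mir380 71.2%. Other pairs lay in the same range, among them Mir411 and Mir758 (74.4%), Mir539 and Mir382 (72.4%) and Mir323 and Mir494 (72.1%). Probe sets of such relatives may share signal, which was not tested.

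By limma, 11 of the 32 measured members passed as higher in KO and 0 as lower, at an adjusted p under 0.05 over all genes. Over all 22180 genes 5.14% were called higher and 3.55% lower. The differences of the 32 genes ran from -0.32 for Mir370 to 1.32 for Mir376b, with a median of 0.57 against 0.00 for all genes. An unadjusted p under 0.05 by limma was found for 22 of the 32, and for 5063 of all 22180 genes. All 4 KO arrays lay above all 3 WT arrays for 19 of the 32 genes (10.3% of all genes) and below them for 0 (9.86% of all genes). At least a 1.5-fold difference was seen for 15. Of all genes, 97% had a log2 difference at or below 0.58, and 1.5% had one at or below -0.59. The 11 calls all fell among the 26 genes from Mir379 on in chromosome order, where the median difference was 0.64, and 0 among the 6 genes before Mir379, where it was 0.15. Differences were above 0 for 26 of the 26 genes from Mir379 on and for 5 of the 6 before it. The left-out genes Mir431, Mir433, Mir127, Mir434 and Mir136 also lie before Mir379, so that this stretch was measured only in part. The cluster was divided at Mir379 after the values were seen, and the difference between the stretches was not tested. The count of 11 changed when single arrays were left out. It was 3 without WT replicate 2, 3 without WT replicate 3 and 5 without KO replicate 3. It was 7 without KO replicate 1, KO replicate 2 or WT replicate 1, and 12 without KO replicate 4. The count of all genes called higher, 1140, fell as well, to 633 without WT replicate 2 and 594 without WT replicate 3. Mir376b, Mir381 and Mir377 stayed past the threshold whichever of the 7 arrays was omitted. The calls of Mir323 and Mir543 were each kept in 5 of these 7 fits and that of Mir382 in 3. Those of Mir380, Mir495, Mir654, Mir154 and Mir541 were each kept in 1.

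**Figure D1:**
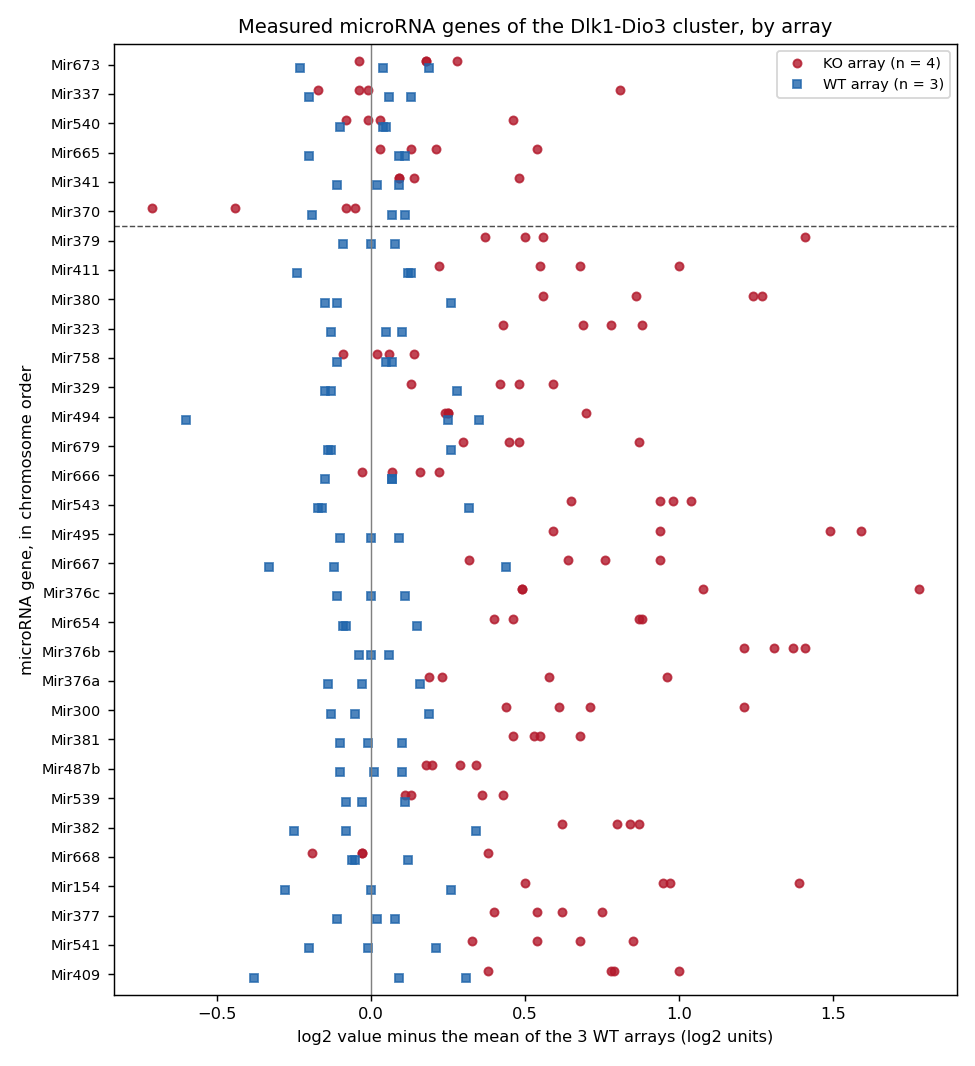
Log2 value of each array minus the mean of the 3 WT arrays (x axis, log2 units) for the 32 measured microRNA genes in chromosome order from top to bottom. Circles are the 4 KO arrays, squares the 3 WT arrays, and the dashed line lies just before Mir379. Below the line the circles lie to the right of all squares for 19 of 26 genes, and above it for 0 of 6.

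The difference was most sharply drawn for Mir376b, which belongs to the miR-376 group, known for adenosine-to-inosine editing of its RNAs in mouse brain. It was at 7.08, 7.02, 7.12 and 6.92 on KO arrays 1 to 4, against 5.71, 5.67 and 5.77 on WT arrays 1 to 3. The lowest KO array lay 1.15 above the highest WT array. The log2 difference was 1.32 (SE 0.06), or 2.49-fold, from means of 7.03 ± 0.09 in KO (SD, n = 4) and 5.71 ± 0.05 in WT (SD, n = 3). Its relative Mir376c was at 4.93, 3.64, 4.23 and 3.64 on the KO arrays, against 3.26, 3.15 and 3.04 on the WT arrays. The groups did not overlap, but KO array 1 stood well above KO arrays 2 and 4, and the difference of 0.96 (SE 0.31) was not called. Without KO replicate 1 it was 0.69. Mir376a was at 3.49, 3.87, 3.14 and 3.10 on the KO arrays, against 2.88, 2.77 and 3.07 on the WT arrays. Its lowest KO value was only 0.03 above its highest WT value, and its difference of 0.49 (SE 0.19) was not called. Adar, the only editing enzyme gene looked at, had a log2 difference of -0.01 (SE 0.15, adjusted p = 0.981 by limma). Editing itself was not measured.

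Mir495 and Mir543, neighbours with closely related mature strands, were both called higher. Mir495 was at 5.18, 5.08, 4.53 and 4.18 in KO, against 3.49, 3.68 and 3.59 in WT, a difference of 1.15 (SE 0.24) or 2.23-fold. The KO arrays spread over 1 log2 unit, while the WT arrays lay close together. Mir543 was at 6.37, 6.43, 6.33 and 6.04 in KO, against 5.71, 5.22 and 5.23 in WT, a difference of 0.91 (SE 0.14). Here the KO arrays lay close together and WT array 1 stood above the other WT arrays.

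At the proximal end of this stretch, Mir379, its first gene, was at 5.13, 4.22, 4.28 and 4.09 in KO, against 3.63, 3.72 and 3.80 in WT. The groups did not overlap, with KO array 1 far above the other KO arrays, and the difference of 0.71 (SE 0.24) was not called. Without KO replicate 1 it was 0.48 and was called. Its neighbour Mir411, which shares a 3p seed with it, was at 4.15, 3.37, 3.70 and 3.83 in KO, against 3.27, 3.28 and 2.91 in WT, and was not called (0.61, SE 0.18). Its lowest KO array, array 2, lay 0.09 above its highest WT array. Mir380 was at 5.92, 5.95, 5.54 and 5.24 in KO, against 4.57, 4.53 and 4.94 in WT. It was called higher with a difference of 0.98 (SE 0.19). These values are from the brighter of its 2 probe sets, and the dimmer probe set gave a difference of 0.04. The dimmer probe sets of Mir376a and Mir409 likewise gave 0.01 and 0.02, and with the mean of both probe sets the differences were 0.51 for Mir380, 0.25 for Mir376a and 0.37 for Mir409.

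Further along the cluster the groups stayed apart for most genes. Mir154 was at 6.31, 5.42, 5.89 and 5.87 in KO, against 4.92, 4.64 and 5.18 in WT, and was called higher by 0.96 (SE 0.21). Mir382 was at 7.07, 7.14, 7.11 and 6.89 in KO, against 6.61, 6.02 and 6.19 in WT, and was called higher by 0.78 (SE 0.14). In both, WT arrays spread by over 0.5 but stayed below every KO array. Mir300 was at 6.64, 7.14, 6.54 and 6.37 in KO, against 5.80, 5.88 and 6.12 in WT, a difference of 0.74 (SE 0.18) that was not called. Its relative Mir381 was at 4.15, 4.30, 4.08 and 4.17 in KO, against 3.72, 3.52 and 3.61 in WT. The smaller difference of Mir381, 0.56 (SE 0.07), was called, and its arrays lay closer together within each group. Mir409 was at 5.65, 5.44, 5.43 and 5.03 in KO, against 4.27, 4.74 and 4.96 in WT, and was not called (0.73, SE 0.19). The KO array 4 value was 0.07 above that of WT array 3.

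The remaining calls were those of Mir323 (0.69, SE 0.11), Mir654 (0.66, SE 0.14), Mir541 (0.60, SE 0.14) and Mir377 (0.58, SE 0.09), so that the 11 called genes spanned 1.48-fold to 2.49-fold. The 15 genes from Mir379 on that were not called had differences of 0.03 to 0.96, and in 8 of them the groups did not overlap, among these Mir679 (0.53, SE 0.15) and Mir487b (0.25, SE 0.06). Among the 7 with overlap, Mir667 had a difference of 0.67 (SE 0.21), Mir329 one of 0.41, Mir494 one of 0.36, Mir539 one of 0.26 and Mir666 one of 0.11. Mir758, between Mir323 and Mir329, had a difference of 0.03 (SE 0.07), and Mir668 one of 0.03 (SE 0.13). These values near 0 lay between called genes.

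Before Mir379 the groups overlapped for all 6 measured genes. Mir337 was at 6.22, 7.20, 6.38 and 6.35 in KO, against 6.52, 6.45 and 6.19 in WT (difference 0.15, SE 0.24). Mir341 was at 8.46, 8.80, 8.41 and 8.41 in KO, against 8.41, 8.34 and 8.21 in WT (0.20, SE 0.11). In both, KO array 2 stood above every other array and the other KO arrays lay near the WT arrays. Mir370 was at 5.28, 5.64, 5.67 and 5.01 in KO, against 5.79, 5.83 and 5.53 in WT, the sole negative difference of a member (-0.32, SE 0.17). The differences of Mir673, Mir540 and Mir665 were 0.15, 0.10 and 0.23. By limma 0 of these 6 genes had an unadjusted p under 0.05. Without KO replicate 2 their median difference was 0.04 and without WT replicate 3 it was 0.06, in place of 0.15.

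**Figure D2:**
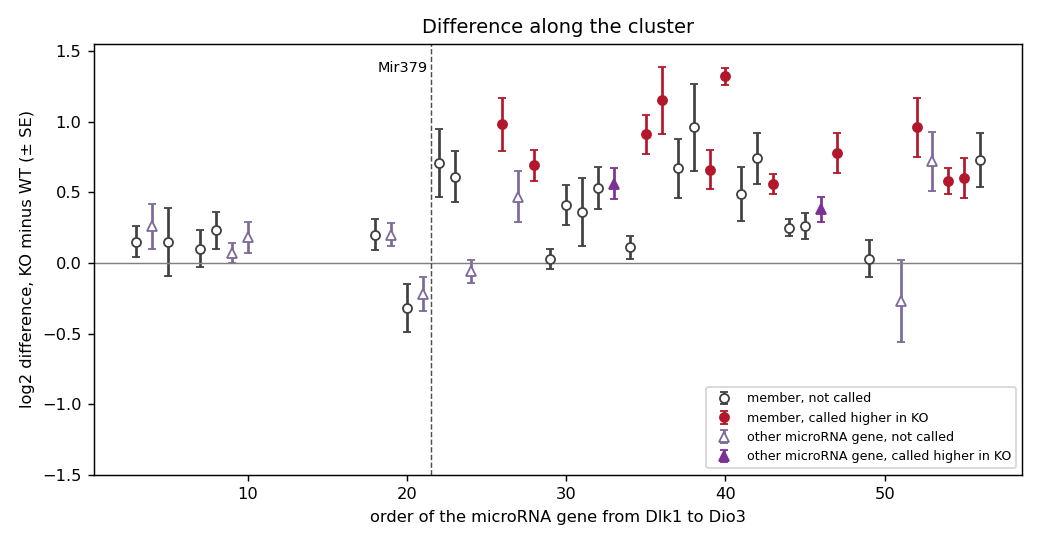
Log2 difference, KO minus WT, with the SE of limma as bars (y axis), against the order of the microRNA gene from Dlk1 to Dio3 in the RefSeq annotation (x axis, rank and not distance). Circles are listed members and triangles other microRNA genes of the region, filled where called, and the dashed line lies just before Mir379. The filled symbols all lie to the right of the line, between differences of 0.38 and 1.32.

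The region also holds microRNA genes that are not on the list, and 11 of these had a probe set of their own. Of these, 2 were called higher and 0 lower, both from Mir379 on. Mir1193 was at 7.17, 7.24, 6.94 and 6.89 in KO, against 6.49, 6.38 and 6.65 in WT. It rose by 0.56 (SE 0.11, adjusted p = 0.0209 by limma). Mir544 was at 3.60, 3.60, 3.62 and 3.38 in KO, against 3.04, 3.13 and 3.35 in WT, a rise of 0.38 (SE 0.09, adjusted p = 0.0487 by limma). The groups did not overlap for either gene. The adjusted p of Mir1193 was between 0.0259 and 0.0854 when single arrays were left out and was above 0.05 without KO replicate 1, WT replicate 1 or WT replicate 2. That of Mir544 was between 0.0392 and 0.156 and was under 0.05 only without KO replicate 4 or WT replicate 3. Mir496a had a difference of 0.72 (SE 0.21, adjusted p = 0.0807), Mir1197 one of 0.47, Mir299a one of -0.06 and Mir453 one of -0.27 (SE 0.29). Of the 5 unlisted genes before Mir379, 0 were called by limma and 1 had an unadjusted p under 0.05, with differences of -0.22 for Mir882 to 0.26 for Mir493.

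The long noncoding transcripts Meg3 and Rian did not pass the test. Meg3, a long noncoding RNA at the proximal end, was at 6.28, 6.54, 6.19 and 6.26 in KO, against 6.30, 6.08 and 6.12 in WT. Rian, the host of the snoRNAs, was at 10.02, 10.48, 10.07 and 10.22 in KO, against 10.09, 9.90 and 9.87 in WT. Both overlapped between the groups, with differences of 0.15 (SE 0.10, adjusted p = 0.423 by limma) and 0.24 (SE 0.12, adjusted p = 0.273 by limma). Of the 6 snoRNA genes with their own probe set, 0 were called and 0 had an unadjusted p under 0.05, with differences of -0.05 to 0.20. Each of the 6, like Meg3 and Rian, was highest among KO arrays on array 2. The same held for 4 of the 6 members before Mir379, but for 9 of the 26 members from Mir379 on, of which 13 were highest on KO array 1 and 14 lowest on KO array 4. Among KO arrays, 7173 of all 22180 genes were highest on array 1, 5001 were highest on array 2 and 4757 were lowest on array 4. Mirg, the transcript that spans the distal microRNAs, and Rtl1 were not named by a probe set of their own, and in the authors' deposited table they had log2 fold changes of 0.64 (adjusted p = 0.00779) and 0.73 (adjusted p = 0.0115).

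Of the protein-coding genes of the region, Dlk1 rose and Dio3 did not pass the test. Dlk1, which encodes a membrane protein of the Notch ligand family found on progenitor cells and on adrenal cells, was at 9.96, 9.72, 9.60 and 9.46 in KO, against 8.58, 8.58 and 8.64 in WT. Every KO array lay at least 0.82 above every WT array. The rise was 1.08 (SE 0.11), with an adjusted p of 0.00257 by limma. Dio3, the thyroid hormone-inactivating deiodinase, was at 4.16, 4.48, 4.43 and 4.81 in KO, against 4.43, 4.37 and 4.42 in WT (0.06, SE 0.14, adjusted p = 0.832). The noncoding Dio3os was at 5.75, 5.60, 5.53 and 5.77 in KO, against 5.95, 5.82 and 6.08 in WT. Its KO arrays all lay below the WT arrays, with a difference of -0.29 (SE 0.08) that did not pass the test (adjusted p = 0.0921 by limma). Of 10 flanking genes outside the imprinted core, 0 were called and 1 had an unadjusted p under 0.05, Begain (0.33, adjusted p = 0.118).

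MicroRNA genes elsewhere in the genome served as a background of the same gene class, but not of the same level. Their mean in WT was 4.45, against 5.56 for the members. Of 440 such genes, 9 were called higher and 6 lower by limma, and their median difference was 0.01. KO arrays lay above all WT arrays for 29 of the 440. Beside this, 11 of the 32 members were called higher, a share of 34.4%, in a set that was proposed with these values known.

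**Figure D3:**
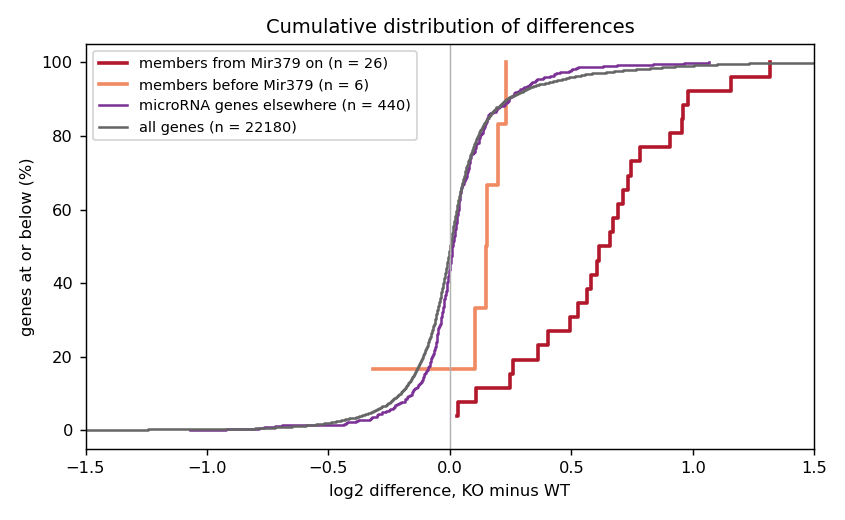
Cumulative share of genes (y axis, %) at or below a log2 difference, KO minus WT (x axis), for the 26 members from Mir379 on, the 6 members before Mir379, 440 microRNA genes elsewhere and all 22180 genes. The line of the members from Mir379 on lies to the right of the others, with a median of 0.64 against 0.01 for microRNA genes elsewhere and 0.00 for all genes. The x axis was limited to 1.5 log2 units on either side.

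Hairpins differed in base composition between the 2 stretches. The median GC content was 57.5% for the 6 hairpins before Mir379 and 42.6% for the 25 matched hairpins from Mir379 on. Across the 31 matched hairpins, GC content and log2 difference had a Pearson's r of -0.57 and a Spearman's rho of -0.55, and across the 25 from Mir379 on -0.34 and -0.25. These are descriptions over genes that share transcripts and arrays. GC content and position cannot be told apart here.

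In the authors' deposited table, 37 of the 42 listed genes had a row. Of these, 15 had an adjusted p under 0.05 with a positive log2 fold change and 0 with a negative one, where 5.57% of all 28638 rows were positive at that threshold. The 15 hold all 11 genes called here and Mir300, Mir409, Mir411 and Mir487b. Among genes left out here, the authors' deposited table gave log2 fold changes of 0.23 for Mir431, 0.60 for Mir434 and 0.54 for Mir136. These lie before Mir379 and opposite Rtl1, and none of them had an adjusted p under 0.05 in that table. For Mir134 it gave 0.27 and for Mir485 -0.04. Some unlisted genes of the region were past 0.05 in the authors' deposited table but not called here. These were Dio3os (-0.37, adjusted p = 0.0339), Mir496a (0.67, adjusted p = 0.0299) and Mir1197 (0.56, adjusted p = 0.0402). Mir544, called here, was not past it there (0.35, adjusted p = 0.0851), whereas Mir1193 and Dlk1 were higher in both.

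Few genes that make or use microRNAs passed the test. Of 21 measured processing genes, 0 rose and 1 fell by limma, the RNA helicase gene Ddx5, a cofactor of Drosha (-0.31, SE 0.08, adjusted p = 0.0495). That call was kept without KO replicate 4 and lost without any other single array, with adjusted p values up to 0.170. Drosha itself had a difference of 0.08 (adjusted p = 0.290), Dicer1, which cuts the hairpin, one of -0.11 (adjusted p = 0.413), and Ago2, which binds the mature strand, one of 0.07 (adjusted p = 0.413). Of 3 measured MEF2 factors, which drive the stretch from Mir379 in rodent neurons, 0 were called and 0 had an unadjusted p under 0.05, with differences of -0.01 to 0.06.

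Among 20 listed genes, which are regulators of imprints and of chromatin and the imprinted gene Nnat, 3 rose and 1 fell by limma. Aff3, an elongation factor that binds the imprinting control region of this locus in mouse embryonic stem cells, was at 6.84, 6.88, 7.48 and 7.25 in KO, against 5.93, 5.89 and 5.70 in WT. It rose by 1.27 (SE 0.16, adjusted p = 0.00503), and every KO array lay above every WT array. Tet1, which oxidises 5-methylcytosine, rose by 0.56 (SE 0.12, adjusted p = 0.0376), the imprinted gene Nnat by 0.62 (adjusted p = 0.0278), and Dnmt1, the maintenance DNA methyltransferase, fell by 0.28 (adjusted p = 0.0387). With single arrays left out, the calls of Tet1 and Nnat were each kept in 2 of 7 fits and that of Dnmt1 in 1 of 7, with adjusted p values up to 0.107 for Tet1, 0.109 for Nnat and 0.136 for Dnmt1. With the mean of its probe sets, the difference of Nnat was 0.31 and was not called (adjusted p = 0.123). Zfp57 and Trim28, which protect imprints in the embryo, had differences of 0.06 and -0.10 (adjusted p = 0.694 and 0.158). The targeted gene Ezh2 was at 6.86, 7.04, 7.10 and 7.15 in KO, against 7.08 on each WT array (-0.04, adjusted p = 0.816). The sources used here do not say which exons its probe set covers, so that this value does not check the labels.

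Of 5 measured genes described as targets of members, 1 rose and 0 fell. Sv2a, a synaptic vesicle protein described as a target of miR-485, was at 6.68, 6.53, 6.94 and 6.27 in KO, against 5.85, 5.85 and 5.66 in WT. It rose by 0.82 (SE 0.15, adjusted p = 0.0179 by limma), and the adjusted p was between 0.0521 and 0.0855 without KO replicate 1 or any single WT replicate. Cpt1a, which imports fatty acids into mitochondria and is described as a target of miR-370, had a difference of -0.30 (adjusted p = 0.0721), and Limk1, a kinase described as a target of miR-134 in neurons, 0.30 (adjusted p = 0.123). Pum2 and Sirt1, listed like Limk1 as targets of miR-134, had differences of -0.07 and 0.02. Mir134 and Mir485 are among the genes left out here, and Mir370 was not called. The genes looked at thus hold no listed target of a called member.

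Markers of medullary chromaffin cells were also higher in KO glands. Of 13 measured chromaffin markers, 13 rose by limma, and their mean was 10.55, 10.44, 10.34 and 10.30 in KO, against 9.45, 9.50 and 9.36 in WT. The mean of the 26 members from Mir379 on was 6.04, 5.90, 5.82 and 5.68 in KO, against 5.32, 5.18 and 5.23 in WT. Both means were highest on KO array 1 and lowest on KO array 4, but over the WT arrays the chromaffin mean was highest, and that of the members lowest, on array 2. Of the 13 chromaffin markers, 10 were highest on KO array 1, 6 lowest on KO array 3 and 5 lowest on KO array 4. For all 22180 genes these counts were 7173, 5040 and 4757. The rise of Th, tyrosine hydroxylase, was 0.96 (SE 0.08, adjusted p = 0.00137), and that of Snap25, a synaptic fusion protein, 1.33 (adjusted p = 0.00158). Markers of capsule and stroma also rose in 6 of 10 cases, with means of 8.16 to 8.81 in KO and 7.66 to 7.74 in WT, and in another order, lowest on KO array 1. The mean of 11 steroidogenic markers was 11.74, 11.69, 11.72 and 11.65 in KO, against 11.63, 11.56 and 11.59 in WT, so that it too was highest on KO array 1 and lowest on KO array 4, and 1 of the 11 rose. X-zone markers fell in 4 of 4 cases, and of 8 adipocyte markers 0 were called by limma and 1 had an unadjusted p under 0.05, with means of 7.25 to 9.23 in KO and 8.75 to 9.86 in WT. Of 5 Schwann cell markers 0 were called by limma and 1 had an unadjusted p under 0.05, and 1 of 6 macrophage and 2 of 6 endothelial markers fell. The part of these cell types in the values of the microRNA genes was not tested.

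**Figure D4:**
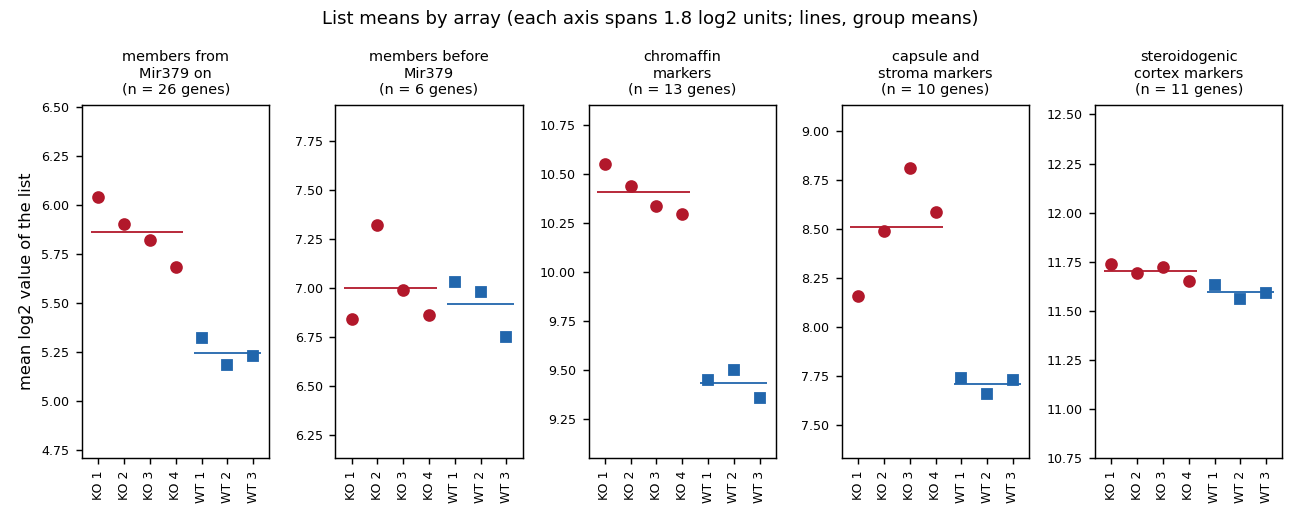
Mean log2 value of 5 gene lists (y axis, log2 units, each axis 1.8 units high) on the 4 KO and 3 WT arrays (x axis). Points are arrays and lines group means. On every KO array the members from Mir379 on, the chromaffin markers and the capsule and stroma markers are higher than on every WT array. The steroidogenic markers are apart only narrowly, with a lowest KO mean of 11.65 and a highest WT mean of 11.63. The members before Mir379 overlap between the groups.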

How the data were processed

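The deposited value table holds RMA log2 values of 41345 probe sets on 7 arrays, made by the authors per the submitters' processing notes. The sources used here give no software version or genome build for it. The log2 fold changes, p-values and adjusted p-values of the authors' deposited table were used only where named. Probe sets were named from the platform annotation: 23521 had 1 gene symbol, 1820 several and 16004 are unnamed here. A gene with several probe sets was represented by the brightest (mean of all 7 arrays). This gave 22180 genes, with no filter on low values. Gene order came from RefSeq (GRCm38.p6).

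KO and WT were compared with limma 3.58.1 in R 4.3.3 (lmFit, eBayes, no covariates), two-sided, with Benjamini-Hochberg adjustment over all genes. Calls are at an adjusted p under 0.05. The fit has 5 residual degrees of freedom, and the number of arrays limits the precision. Array medians were 5.32 to 5.38. The fit was tested on simulated data. Hairpins were aligned with Biopython 1.88.

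The members and all lists were chosen with earlier results of these data known. Values on every array are given for the 10 members with the largest absolute difference, for relatives by seed among the 15 largest and for named transcripts of the region. Mir381, Mir376a, Mir337, Mir341, Mir370, Mir1193, Mir544, Aff3 and Sv2a were added after their values were seen. Alternatives covered scaling, dim genes, probe sets, the variance prior, array weights, a replicate block, a fold minimum and each array left out.

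Same-numbered KO and WT arrays had correlations of 0.07, -0.084 and -0.111 in their deviations from the group means. No pairing by number was seen, but with so few arrays these values cannot exclude one.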

Additional observations from a re-analysis of the deposited data

Results flagged for a closer look

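The 4 KO arrays were searched, for 65 values, for an array far from the others, by Dixon's ratio of the gap to the range. Chance puts about 5% of such groups past the limit, and 4 of 65 were past it. Mir337 was at 7.20 on KO array 2, while the other KO values lay between 6.22 and 6.38. Mir341 was at 8.80 on KO array 2 and between 8.41 and 8.46 on the others. Mir494 was at 6.70 on KO array 1 and between 6.24 and 6.25 on the others. Mir544 was at 3.38 on KO array 4 and between 3.60 and 3.62 on the others.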

How the results depend on the processing

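The count of members called higher, 11, was between 3 and 12 when single arrays were left out, 6 with the replicate block and 7 with genes below the median level left out, where 19 members were tested. It was between 9 and 12 under the other alternatives, and 0 members were called lower under any. Of the 11 genes, 11 were called after centring, further quantile normalization, array weights, each probe set on its own and a trended robust prior, and 6 with the replicate block. The median difference of the members was 0.36 over the 19 genes left by the filter, and 0.50 to 0.61 under the other alternatives. The filter left 14 of the 26 members from Mir379 on, with a median of 0.55, and 5 of the 6 before it, with a median of 0.15. Over all genes, 1140 were called higher and 788 lower, against 523 and 286 with the replicate block and 566 and 236 with a 1.5-fold minimum. With single arrays left out the counts were 594 to 945 higher and 322 to 654 lower. Mir376b and Dlk1 were called under each of their 15 alternatives. Among the members, the differences of Mir337, Mir540, Mir758 and Mir668, which were not called, changed sign under 1 or 2 alternatives. Centring shifted the median of all genes by 0.0174. Other background corrections and a slide or scan block were not run, since scanner files were not used here. Detection values were not used here either, so that differences of dim probe sets, whose log2 values RMA compresses near the background, may be understated.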
